A study of Homo sapiens with 30 samples.

Results

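LOUCY cells carrying a doxycycline-inducible (dox-inducible) *MEF2C* construct were profiled after culture with dox on OP9-GFP stroma and after culture with dox in medium without stroma. The 6 arrays described here are 3 of the OP9-GFP condition with dox and 3 of the medium condition with dox, chosen by their labels from the 30 arrays of the series. The like pair of conditions without dox, another 6 arrays, was used to ask where the stroma effect of the induced cells differed. LOUCY is an established human cell line of early T cell precursor acute lymphoblastic leukemia (ETP-ALL), a T cell leukemia arrested close to the progenitor stage, and one that also expresses *MEF2C* from its own rearranged locus.

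The cells on OP9-GFP with dox, the cells in medium with dox and the 2 groups without dox were all of the same transduced and sorted bulk line, not a clone. The construct drives a codon-optimized human MEF2C without its β domain, joined to a blue fluorescent protein, from a tetracycline-responsive promoter. OP9 cells are stromal cells from mouse bone marrow. OP9-GFP carries only the green fluorescent protein, in contrast to OP9-DL1, which displays the Notch ligand Delta-like 1. The study's methods describe stem cell factor, FLT3 ligand and IL-7 for human cocultures, but whether the LOUCY cocultures on the arrays received them, how long they lasted and how the cells were taken off the stroma were not stated for these arrays in the sources used here. The stroma and the handling or medium that went with it therefore cannot be told apart. Nothing in the labels says that the 3 arrays of a group came from separate cultures, so the p-values rest on the spread between arrays alone, and that spread may be technical.

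Several nutrient programs run through the results, and their wiring is well known from human and mouse cells. When amino acids run short or the endoplasmic reticulum (ER) is overloaded, sensor kinases slow translation and raise the transcription factor ATF4, which turns on amino acid transporters, amino acid synthesis enzymes and tRNA synthetases, a program called the integrated stress response. Sterol shortage acts through the SREBP factors on cholesterol and fatty acid enzymes, and ER overload acts also through XBP1 and ATF6 on the chaperones of the ER. Bone marrow stroma is known to supply lymphoid cells with cytokines, adhesion and metabolites, among them cyst(e)ine.

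Values are log2 intensities on the authors' scale, so a difference of 1 is a fold of 2, and a gene is represented by its brightest probe set. A gene was called higher or lower when limma's test across all arrays gave an adjusted p under 0.05. On OP9-GFP with dox, 1511 of 19775 genes were higher (7.64%) and 2571 were lower (13.0%) than in medium with dox, and the median difference over all genes was −0.02. The larger changes were mostly losses. Beyond a log2 difference of 1, 26 called genes were higher and 148 lower, and beyond 2, 1 was higher and 10 were lower.

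The gene lists differed in how many members were called, as the plot of called genes by list shows. The amino acid, tRNA synthetase, sterol and fatty acid lists lay well above the 13.0% of all genes that were lower. The ribosome biogenesis, S phase and actin lists lay above the 7.64% that were higher. So did others, among them the early response (26.3%), B lineage factor (25.0%) and ERK feedback (23.1%) lists.

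**Figure D1:**
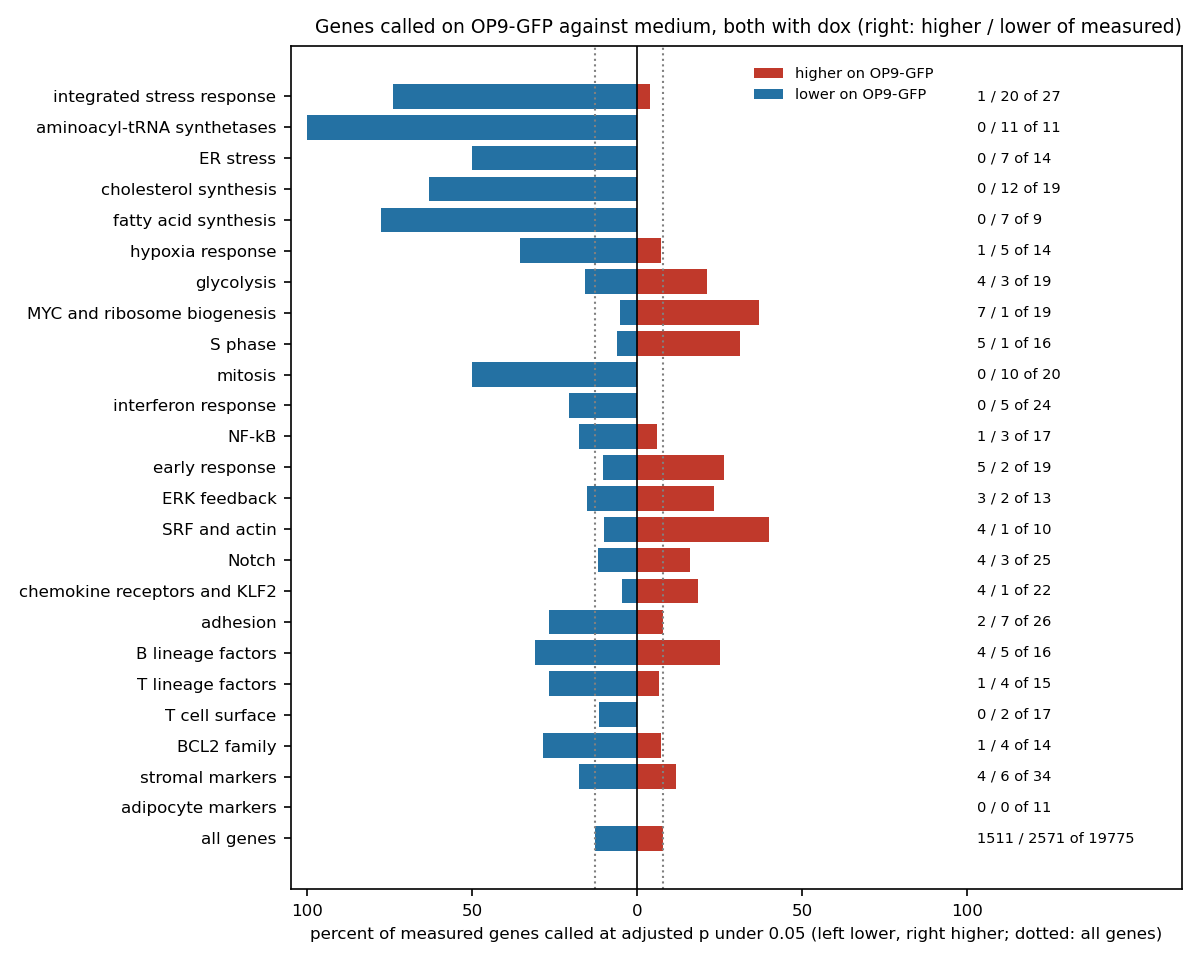
Percent of the measured genes of each list called higher (right, red) or lower (left, blue) on OP9-GFP with dox than in medium with dox, with the counts at the right and all 19775 genes in the last row and as dotted lines. All 11 aminoacyl-tRNA synthetases and 20 of 27 integrated stress response genes were lower, and none of the 11 adipocyte markers was called.

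The integrated stress response list fell on OP9-GFP. Of its 27 measured genes, 20 were lower and 1 higher, against 13.0% lower and 7.64% higher of all genes, and its median difference was −0.73 against −0.02 over all genes. The count of 20 was the same without OP9-GFP with dox replicate 3 and with the actin 3′ to 5′ signal of each array as a covariate, and the single riser lost its call in both.

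The transporters led the list. *SLC7A11*, the cystine importer of the xc- system, read 7.47, 7.51 and 7.44 on OP9-GFP with dox, against 9.90, 10.04 and 10.06 in medium with dox (−2.53, SE 0.09, limma adjusted p = 1.2e-15). All 3 of its probe sets were lower. *SLC7A5*, the large neutral amino acid carrier, read 7.79, 7.89 and 7.61 on OP9-GFP, against 9.36, 9.31 and 9.23 in medium (−1.54, SE 0.08). Its partner chain *SLC3A2* fell by 0.65. The cationic amino acid carrier *SLC7A1* fell by 0.54, but in 1 of its 5 probe sets, and it lost the call in 1 of 16 alternatives. In each of these 4 transporter genes, every OP9-GFP array lay below every medium array.

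The enzymes of amino acid supply fell as well. *CTH*, which makes cysteine from cystathionine, read 7.20, 7.17 and 7.22 on OP9-GFP with dox, against 8.79, 8.94 and 9.02 in medium with dox (−1.72, SE 0.10). *ASNS*, the asparagine synthetase, read 5.82, 5.97 and 5.76 on OP9-GFP, against 6.98, 7.003 and 7.07 in medium (−1.17, SE 0.11), and was lower in 1 of its 2 probe sets. *PCK2*, the mitochondrial phosphoenolpyruvate carboxykinase, read 7.40, 7.51 and 7.48 on OP9-GFP, against 8.90, 8.97 and 8.85 in medium (−1.45, SE 0.08). The serine and one-carbon enzymes *PHGDH*, *SHMT2* and *MTHFD2* fell by 0.86, 0.74 and 0.73, so that both synthesis of serine and its use for one-carbon units were represented. *PSAT1* of the same pathway was not called (0.33, adjusted p = 0.23), and its OP9-GFP arrays spread between 4.64 and 5.47.

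The regulators of the response followed. *DDIT3*, which encodes the pro-apoptotic factor CHOP, read 7.13, 7.02 and 6.94 on OP9-GFP with dox, against 8.42, 8.13 and 8.39 in medium with dox (−1.28, SE 0.09, adjusted p = 1.2e-10). *TRIB3*, a pseudokinase induced by ATF4 and CHOP, read 8.02, 7.87 and 7.85 on OP9-GFP, against 9.24, 9.08 and 9.14 in medium (−1.24, SE 0.07). *CEBPB*, a basic leucine zipper factor that pairs with ATF4, read 9.09, 9.08 and 9.09 on OP9-GFP, against 10.42, 10.39 and 10.47 in medium (−1.34, SE 0.05). The arrays of each group lay close together, and the groups did not overlap. *ATF4* mRNA itself differed less, with 11.58, 11.61 and 11.54 on OP9-GFP and 12.20, 12.15 and 12.18 in medium (−0.60, SE 0.06).

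2 growth brakes of the list were also lower. *SESN2*, a leucine-binding inhibitor of mTORC1, read 6.95, 6.72 and 6.96 on OP9-GFP with dox, against 8.96, 8.79 and 8.85 in medium with dox (−1.99, SE 0.11), and *DDIT4*, another mTORC1 inhibitor, fell by 1.08 (SE 0.08). *VLDLR*, a lipoprotein receptor that ATF4 also raises, read 8.20, 8.16 and 8.20 on OP9-GFP and 9.90, 10.06 and 10.03 in medium (−1.81, SE 0.09). The exception to the direction was *STC2*, a secreted glycoprotein, which was higher by 0.39 (SE 0.12, adjusted p = 0.025) at low values of 3.84 to 4.52. Its call was lost without medium with dox replicate 3 (0.29, adjusted p = 0.16), without OP9-GFP with dox replicate 2 (0.34, adjusted p = 0.11) and without OP9-GFP with dox replicate 3 (0.40, adjusted p = 0.052). *CHAC1*, a glutathione-degrading enzyme, was not called (0.27, adjusted p = 0.18).

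The largest fall among all genes belonged to *INHBE*, the inhibin beta E chain, which was on none of the lists. It read 3.09, 2.60 and 2.71 on OP9-GFP with dox, against 7.01, 7.02 and 7.16 in medium with dox (−4.27, SE 0.19, adjusted p = 3.8e-14). The OP9-GFP values lay near the low end of the scale, whose lowest value over all arrays was 1.40.

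**Figure D2:**
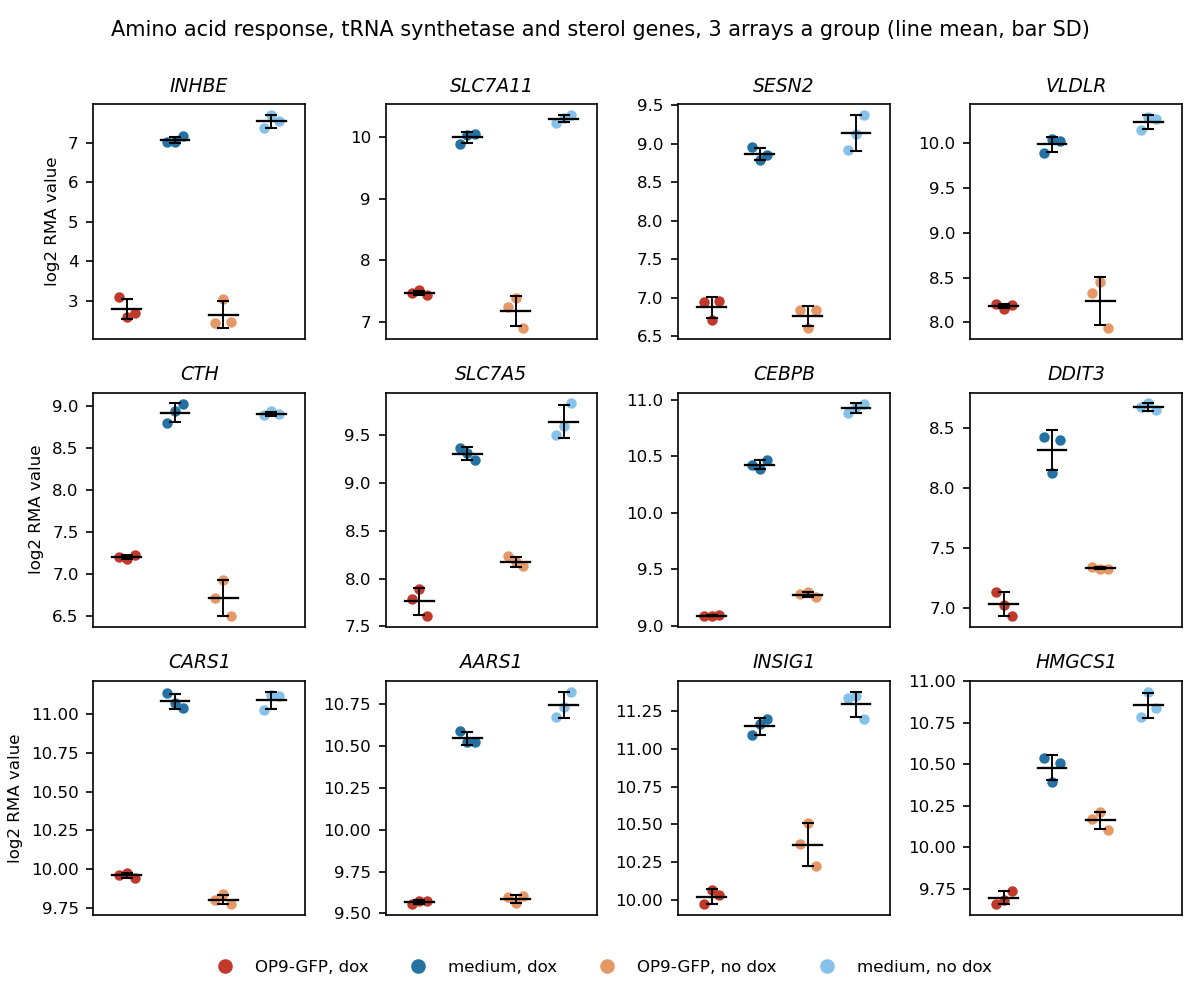
Log2 values of 12 genes of amino acid supply, stress, tRNA charging and sterol synthesis on each array, in the order OP9-GFP with dox, medium with dox, OP9-GFP without dox and medium without dox (points, arrays; line, mean; bar, SD; n = 3 each). In every panel the 3 OP9-GFP arrays with dox lie below the 3 medium arrays with dox, as for *INHBE* at 2.60 to 3.09 against 7.01 to 7.16.

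All 11 measured aminoacyl-tRNA synthetases, the enzymes that load tRNAs with amino acids, were lower on OP9-GFP, with a median difference of −0.67. *CARS1*, for cysteine, read 9.96, 9.98 and 9.95 on OP9-GFP with dox, against 11.14, 11.07 and 11.04 in medium with dox (−1.12, SE 0.05, adjusted p = 2.8e-13). *AARS1*, for alanine, read 9.55, 9.57 and 9.57 on OP9-GFP, against 10.59, 10.52 and 10.53 in medium (−0.98, SE 0.06). *GARS1*, for glycine, read 11.18, 11.19 and 11.10 on OP9-GFP, against 12.13, 12.09 and 12.11 in medium (−0.95, SE 0.07). The smallest of the 11 differences was that of *TARS1*, for threonine (−0.34, SE 0.07, adjusted p = 0.00063). All 11 calls stood without OP9-GFP with dox replicate 3 and with the actin covariate.

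Because these genes moved together, their promoters were read for the amino acid response element that ATF4 pairs bind, taken here as TGATGNAA on either strand. The promoters are the windows of 250 bases before to 50 after each transcript start in RefSeq, build GRCh38.p14. The letters occurred in 1270 of 35116 windows (3.62%). They occurred in 6 of the 14 windows of tRNA synthetase genes (42.9%, 6 of 9 genes with a window) and in 4 of the 33 windows of the stress response list (12.1%, 4 of 21 genes). The 4 genes were *ASNS*, *SLC3A2* and *SLC7A1*, which fell by their brightest probe sets, and *CHAC1*, which was not called. A match is a description of letters, and no match says only that the letters are not in this window.

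The stretches of 90 bases around the letters are shown for 2 synthetases that fell, for *ASNS*, and for *CHAC1*, the gene with the letters that was not called. They read 5′ to 3′ in the direction of the gene, and the capitals mark the element. The stretches lie upstream of the start, at chr16:70289644-70289733 on the minus strand for *AARS1*, chr7:30594788-30594877 on the plus strand for *GARS1*, chr7:97872427-97872516 on the minus strand for *ASNS* and chr15:40953222-40953311 on the plus strand for *CHAC1*. In *ASNS* the letters read forward, and in the other 3 they lie on the opposite strand.
AARS1: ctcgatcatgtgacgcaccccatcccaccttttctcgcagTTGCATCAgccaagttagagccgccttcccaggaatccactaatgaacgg
GARS1: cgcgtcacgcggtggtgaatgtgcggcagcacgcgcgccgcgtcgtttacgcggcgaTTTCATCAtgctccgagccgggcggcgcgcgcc
ASNS: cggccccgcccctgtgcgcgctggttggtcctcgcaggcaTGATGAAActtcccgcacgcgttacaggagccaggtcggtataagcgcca
CHAC1: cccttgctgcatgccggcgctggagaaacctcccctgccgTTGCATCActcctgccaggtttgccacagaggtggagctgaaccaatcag

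The ER stress list was split. By the brightest probe sets, 7 of its 14 measured genes were lower and none higher, against 13.0% lower and 7.64% higher of all genes. The median difference was −0.13. Other probe sets of the list went the opposite way. *SEL1L*, counted as lower, was lower in 1 and higher in 2 of its 4 probe sets, and their mean differed by 0.12. *DNAJC3*, not called by its brightest probe set, was higher in 3 of 4, by up to 0.82. *HERPUD1*, an ER membrane protein of protein degradation, read 9.20, 9.13 and 9.13 on OP9-GFP with dox, against 10.16, 10.17 and 10.18 in medium with dox (−1.02, SE 0.06), and was lower in 1 of its 2 probe sets. *DNAJB9*, an ER co-chaperone, read 7.89, 7.96 and 7.81 on OP9-GFP, against 8.58, 8.79 and 8.74 in medium (−0.82, SE 0.07).

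The main ER chaperones, which fold proteins in its lumen, were not called. *HSPA5*, which encodes BiP, read 11.08, 11.03 and 11.04 on OP9-GFP with dox and 11.01, 11.02 and 11.04 in medium with dox (0.03, SE 0.05, adjusted p = 0.79). *HSP90B1* differed by 0.14 (adjusted p = 0.27), *CALR* by −0.11 (adjusted p = 0.42) and *CRELD2* by −0.09 (adjusted p = 0.45). *XBP1*, the factor that drives many of these genes, read 9.84, 9.86 and 9.82 on OP9-GFP and 9.93, 9.86 and 9.98 in medium (−0.09, adjusted p = 0.43), and 1 of its 2 probe sets was higher.

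These 5 uncalled genes were those of the list whose promoter windows held the ER stress response element, taken as CCAAT and CCACG 9 bases apart on either strand, which occurred in 27 of 35116 windows (0.0769%) and in 5 of the 16 windows of the list. *HERPUD1* was the 1 gene of the list with the amino acid response letters. The 3 stretches below set *HERPUD1*, which fell and carries the amino acid response letters in capitals, beside *HSPA5* and *XBP1*, which were not called and carry the ER stress element in capitals. They lie at chr16:56931926-56932015 (plus), chr9:125241360-125241449 (minus) and chr22:28800572-28800661 (minus) of GRCh38.p14, all upstream of the start.
HERPUD1: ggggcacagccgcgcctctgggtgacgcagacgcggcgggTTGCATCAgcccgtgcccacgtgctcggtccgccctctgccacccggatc
HSPA5: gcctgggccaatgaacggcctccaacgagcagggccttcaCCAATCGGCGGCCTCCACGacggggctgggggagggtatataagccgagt
XBP1: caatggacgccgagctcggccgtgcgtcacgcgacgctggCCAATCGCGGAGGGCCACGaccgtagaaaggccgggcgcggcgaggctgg

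Sterol synthesis genes were lower on OP9-GFP. Of 19 measured genes of the cholesterol list, 12 were lower and none higher (63.2% lower, against 13.0% of all genes). The median difference was −0.27. *INSIG1*, which holds the SREBP precursors in the ER and is itself an SREBP target, read 9.97, 10.06 and 10.03 on OP9-GFP with dox, against 11.09, 11.17 and 11.20 in medium with dox (−1.13, SE 0.07, adjusted p = 3.5e-11). *HMGCS1*, the enzyme that makes HMG-CoA, read 9.66, 9.68 and 9.74 on OP9-GFP, against 10.54, 10.39 and 10.51 in medium (−0.79, SE 0.07). *MSMO1* fell by 0.88, *FDPS* by 0.65 and *SREBF1*, which encodes a SREBP factor, by 0.58. *SQLE*, the squalene epoxidase, was not called (−0.12, adjusted p = 0.2). The sterol element TCACNCCAC was found in 1 of the 22 windows of this list, that of *SREBF2*, and in 1.13% of all windows. *SREBF2*, which encodes the main SREBP of cholesterol synthesis, fell by 0.31 (SE 0.09, adjusted p = 0.013), and lost the call without medium with dox replicate 3 (−0.28, adjusted p = 0.057) and without OP9-GFP with dox replicate 3 (−0.25, adjusted p = 0.09).

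In the fatty acid list, 7 of 9 measured genes were lower and none higher (77.8% lower, against 13.0% of all genes). The median difference was −0.36. *ACSS2*, which turns acetate into acetyl-CoA, read 5.93, 6.10 and 5.97 on OP9-GFP with dox, against 7.01, 7.05 and 7.08 in medium with dox (−1.05, SE 0.09). *SCD*, the stearoyl-CoA desaturase, fell by 0.52 (SE 0.06), in 2 of 4 probe sets. *FASN*, the fatty acid synthase, fell by 0.51 (SE 0.15, adjusted p = 0.015) and was the less certain of them, since it lost the call without medium with dox replicate 2 (−0.49, adjusted p = 0.051), without medium with dox replicate 3 (−0.48, adjusted p = 0.058) and without OP9-GFP with dox replicate 1 (−0.49, adjusted p = 0.053).

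Of the hypoxia response list, 5 of 14 measured genes were lower and 1 higher (35.7% and 7.14%, against 13.0% and 7.64% of all genes). *VEGFA*, the endothelial growth factor that ATF4 also raises, read 8.78, 8.86 and 8.78 on OP9-GFP with dox, against 9.94, 10.01 and 10.16 in medium with dox (−1.23, SE 0.09), and *BHLHE40*, a transcriptional repressor, fell by 0.74 (SE 0.10). *ANKRD37*, a marker of the hypoxia response, was higher by 0.53 (SE 0.08). Glycolysis was called both ways, with 4 of 19 genes higher and 3 lower (21.1% and 15.8%). Among the higher were the glucose transporter *SLC2A3* (0.73, SE 0.14) and *PFKFB3*, which drives glycolytic flux (0.47, SE 0.07).

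Growth genes moved in both directions. Of 19 measured MYC and ribosome biogenesis genes, 7 were higher and 1 lower (36.8% and 5.26%, against 7.64% and 13.0% of all genes). Their median difference was 0.16. *RRS1*, a ribosome assembly factor, read 9.92, 9.91 and 9.998 on OP9-GFP with dox, against 9.29, 9.32 and 9.18 in medium with dox (0.68, SE 0.06), *NIP7* rose by 0.57, and *ODC1*, the ornithine decarboxylase, rose by 0.46. *MYC* itself was near background, between 2.84 and 3.06 on OP9-GFP and between 2.74 and 3.06 in medium. The list's lower gene was *MYCN*, the MYC paralog that was bright in LOUCY cells, at 10.26, 10.25 and 10.14 on OP9-GFP and 10.45, 10.60 and 10.50 in medium (−0.30, SE 0.07), but only 1 of its 10 probe sets was lower, and their mean differed by 0.04 (adjusted p = 0.7).

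Of 16 S phase genes, 5 were higher and 1 lower (31.2% and 6.25%, against 7.64% and 13.0% of all genes). *RRM2*, a subunit of the reductase that makes deoxynucleotides, read 11.07, 11.09 and 11.03 on OP9-GFP with dox, against 10.27, 10.40 and 10.26 in medium with dox (0.75, SE 0.05), and *CCNE2*, a cyclin of the G1 to S transition, rose by 0.51 (SE 0.08). *CDK6*, the G1 kinase, rose by 0.57 (SE 0.06) and was higher in 5 of 7 probe sets. Of 20 mitosis genes, none was higher and 10 were lower, with a median of −0.14. The mitotic kinases *AURKB* and *AURKA* fell by 0.62 and 0.30. The other 8 falls were of at most 0.25, and the count of 10 dropped to 4 without OP9-GFP with dox replicate 3 and to 5, with 1 higher, with the actin covariate.

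In the early response list 5 of 19 genes were higher and 2 lower (26.3% and 10.5%, against 7.64% and 13.0% of all genes), but without OP9-GFP with dox replicate 3 the counts were 2 and 2. *FOSL2*, an AP-1 subunit, read 8.06, 8.07 and 8.16 on OP9-GFP with dox, against 7.43, 7.64 and 7.51 in medium with dox (0.57, SE 0.08). The largest change of the list was that of *ATF3*, which is also part of the ATF4 program, at 7.64, 7.57 and 7.61 on OP9-GFP and 8.58, 8.56 and 8.57 in medium (−0.96, SE 0.07). In the ERK feedback list 3 of 13 were higher and 2 lower (23.1% and 15.4%), with the ERK phosphatases *DUSP5* and *DUSP6* higher by 0.87 (SE 0.11) and 0.49 (SE 0.09). In the serum response factor and actin list 4 of 10 were higher and 1 lower, among them the tropomyosins *TPM4* (0.72, SE 0.10) and *TPM1* (0.54, SE 0.08).

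The inflammatory genes that were called were mostly lower. Of 24 interferon response genes, 5 were lower (20.8%, against 13.0% of all genes) and none higher, with *CMPK2* and *HERC5* down by 0.56 and 0.44. Of 17 NF-κB genes, 3 were lower and 1 higher (17.6% and 5.88%, near the shares of all genes), and *TNFAIP3*, which encodes the feedback inhibitor A20, fell by 0.60 (SE 0.08). The largest riser among all genes was nevertheless *NFKBIZ*, which encodes the nuclear IκBζ protein and was not on that list. It read 6.65, 6.44 and 6.39 on OP9-GFP with dox, against 4.34, 4.54 and 4.57 in medium with dox (2.01, SE 0.14, adjusted p = 7.7e-11), and both of its probe sets were higher.

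In the Notch list, 4 of 25 genes were higher and 3 lower. *HES1*, a repressor that Notch switches on, read 5.53, 5.74 and 5.65 on OP9-GFP with dox, against 5.17, 5.30 and 5.31 in medium with dox (0.38, SE 0.10, adjusted p = 0.0084). Without OP9-GFP with dox replicate 2 its difference was 0.33 (adjusted p = 0.053). Of its 3 probe sets, 2 were higher, by up to 1.04. The Notch targets *DTX1* (0.28, adjusted p = 0.35), *NRARP* (−0.11, adjusted p = 0.56) and *PTCRA* (0.02, adjusted p = 0.95) were not called. On OP9-DL1 with dox, *HES1* read 8.89, 8.88 and 8.72.

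B lineage regulators were called in both directions, with 4 of 16 higher and 5 lower (25.0% and 31.2%, against 7.64% and 13.0% of all genes). *POU2AF1*, the B cell coactivator OBF-1, read 4.27, 4.40 and 4.08 on OP9-GFP with dox, against 5.43, 5.87 and 5.53 in medium with dox (−1.36, SE 0.14), and was lower in 1 of 2 probe sets. *BACH2*, a repressor of lymphocyte maturation, read 5.96, 6.07 and 5.86 on OP9-GFP, against 7.08, 7.17 and 6.88 in medium (−1.08, SE 0.11), and *BCL6*, the germinal center repressor, fell by 0.60 (SE 0.07). *EBF1*, the early B cell factor, went the other way, at 9.84, 9.84 and 9.85 on OP9-GFP and 9.54, 9.47 and 9.42 in medium (0.36, SE 0.06), while *PAX5* was not called (0.04, adjusted p = 0.87).

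Among the 7 immunoglobulin genes 2 were higher and 2 lower (28.6% each, against 7.64% and 13.0% of all genes). *JCHAIN*, the chain that joins IgM and IgA polymers, read 6.56, 6.90 and 6.69 on OP9-GFP with dox, against 4.75, 4.88 and 4.94 in medium with dox (1.86, SE 0.11, adjusted p = 4.7e-12). *IGLC1*, a lambda constant region gene that shares sequence with its neighbors, fell by 0.55 (SE 0.07), in 1 of 9 probe sets. *LIG4*, the ligase that joins V(D)J ends, was the only called gene of 7 V(D)J genes (14.3%, near the 13.0% of all genes that were lower). It read 8.82, 8.84 and 8.75 on OP9-GFP and 9.93, 9.86 and 10.01 in medium (−1.13, SE 0.08).

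T lineage genes were called in both directions. Of 15 T lineage factors 4 were lower (26.7%, against 13.0% of all genes) and 1 higher, and of 17 T cell surface genes 2 were lower (11.8%). Of 18 T cell signaling genes 4 were lower and 4 higher (22.2% each, against 13.0% and 7.64% of all genes). Of 6 genes of the T cell receptor complex 2 were lower and 1 higher (33.3% and 16.7%). *GATA3*, a T lineage factor, read 12.06, 12.05 and 12.00 on OP9-GFP with dox, against 12.30, 12.35 and 12.27 in medium with dox (−0.27, SE 0.06), and *ID2*, an inhibitor of E proteins, rose by 0.65 (SE 0.07). *CD28*, the costimulatory receptor, read 7.47, 7.46 and 7.44 on OP9-GFP, against 8.31, 8.45 and 8.49 in medium (−0.96, SE 0.09). *CD5* fell by 0.61 (SE 0.19, adjusted p = 0.02), but lost the call without OP9-GFP with dox replicate 3 (−0.47, adjusted p = 0.14), without medium with dox replicate 1 (−0.55, adjusted p = 0.082) and without medium with dox replicate 2 (−0.58, adjusted p = 0.066). In the T cell receptor complex the CD3 chains parted, with *CD3G* higher by 0.46 (SE 0.11), *CD3D* lower by 0.26 on the log2 scale (SE 0.06) and *CD3E* not called (−0.03, adjusted p = 0.87). The call was lost in 3 of 16 alternatives for *CD3G* and in 1 of 16 for *CD3D*.

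Survival and migration genes gave some of the larger single changes. *HRK*, a pro-apoptotic BH3-only gene, read 5.09, 5.10 and 4.81 on OP9-GFP with dox, against 6.31, 6.27 and 6.08 in medium with dox (−1.22, SE 0.14). The anti-apoptotic *BCL2* read 10.69, 10.70 and 10.74 on OP9-GFP, against 11.18, 11.17 and 11.20 in medium (−0.47, SE 0.07), a fall seen in 1 of 4 probe sets and absent from their mean (0.03, adjusted p = 0.72). *BCL2L11*, which encodes the BH3-only protein BIM, fell by 0.40 (SE 0.07), and *BIK* of the same class rose by 0.51 (SE 0.06). *KLF2*, a factor of lymphocyte quiescence and egress, read 7.04, 7.18 and 6.83 on OP9-GFP, against 6.09, 6.01 and 5.84 in medium (1.03, SE 0.14), and *CCR7*, the homing receptor, read 5.65, 5.43 and 5.37 on OP9-GFP, against 6.60, 6.58 and 6.54 in medium (−1.09, SE 0.13).

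Of 26 adhesion genes 7 were lower and 2 higher (26.9% and 7.69%, against 13.0% and 7.64% of all genes), and without OP9-GFP with dox replicate 3 the counts were 5 and 1. *ICAM2* fell by 0.67 (SE 0.07) and *ITGB1*, the beta-1 integrin, by 0.36 (SE 0.06). Of the p53 target list 4 of 14 were lower and 1 higher (28.6% and 7.14%). *TP53INP1* read 10.33, 10.41 and 10.38 on OP9-GFP with dox and 11.52, 11.57 and 11.59 in medium with dox (−1.19, SE 0.07), a fall seen in 1 of its 3 probe sets. Among progenitor genes *RUNX2*, a Runt factor, fell by 0.75 (SE 0.07) in 1 of 6 probe sets, and *WT1*, a zinc finger factor, rose by 0.92 (SE 0.16) in both of its probe sets. Of cytokine signaling genes 3 of 24 were higher and 3 lower (12.5% each, against 7.64% and 13.0% of all genes). The receptor chain *IL2RB* was up by 0.61 (SE 0.08) and *STAT5B*, in 1 of 5 probe sets, down by 0.56 (SE 0.07).

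2 lists were drawn up after earlier results of these arrays, so that their direction is not independent evidence. Both are named for a change in the medium arrays with dox, which are also the reference here. The shared reference alone favors falls in the first list and rises in the second, so the counts test nothing. Of 18 genes raised by dox in medium, 8 were lower on OP9-GFP with dox than in medium with dox and 2 higher (44.4% and 11.1%, against 13.0% and 7.64% of all genes). *CSRP3*, a muscle LIM protein, read 7.55, 7.34 and 7.23 on OP9-GFP with dox, against 9.34, 9.14 and 9.24 in medium with dox (−1.87, SE 0.16). *SLC6A13*, a GABA transporter, fell by 1.04 (SE 0.13) and *KYNU*, an enzyme of tryptophan breakdown, by 0.87 (SE 0.12). Of 15 genes lowered by dox in medium, 5 were higher and 4 lower (33.3% and 26.7%).

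The other large risers came from many programs. *MB*, the myoglobin gene, read 6.84, 6.88 and 6.80 on OP9-GFP with dox, against 5.32, 5.24 and 5.47 in medium with dox (1.50, SE 0.10). *TRAT1*, an adaptor of the T cell receptor, read 5.85, 5.66 and 5.62 on OP9-GFP, against 3.98, 4.76 and 4.21 in medium (1.40, SE 0.14). *EOMES*, a T-box factor, read 7.41, 7.30 and 7.40 on OP9-GFP, against 6.27, 5.998 and 6.11 in medium (1.24, SE 0.08). *ANXA1*, a phospholipid-binding protein, rose by 1.17 (SE 0.07) in both of its probe sets. *HINT3*, *MIR3682*, *MMRN1*, *SVOPL* and *CHRNA9* rose by 1.50, 1.35, 1.28, 1.15 and 1.30, and *SCN3A*, a sodium channel gene, rose by 1.68 in 1 of 2 probe sets.

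Some of the 15 largest risers varied between the OP9-GFP arrays and were low in medium. *MMRN1*, given above, read 4.53, 4.36 and 3.80 on OP9-GFP with dox and 3.01, 3.15 and 2.71 in medium with dox. *CHRNA9*, also given above, read 4.93, 4.44 and 4.49 on OP9-GFP and 3.41, 3.69 and 2.87 in medium. Each of these lost the call in 1 of 16 alternatives. *SGK1*, a kinase downstream of PI3K and glucocorticoid signaling, read 4.60, 4.77 and 5.66 on OP9-GFP with dox, against 3.11, 2.96 and 3.04 in medium with dox (1.97, SE 0.52, adjusted p = 0.0074). *LOX*, the collagen cross-linking enzyme, read 4.01, 3.57 and 4.25 on OP9-GFP and 2.39, 2.64 and 2.57 in medium (1.41, SE 0.37), in 1 of 3 probe sets. *UBE2E3*, a ubiquitin-conjugating enzyme, read 3.41, 3.62 and 3.94 on OP9-GFP and 2.36, 2.23 and 2.36 in medium (1.34, SE 0.40). Without OP9-GFP with dox replicate 3 the differences of *SGK1* and *UBE2E3* were 1.64 (adjusted p = 0.055) and 1.20 (adjusted p = 0.08), and without medium with dox replicate 2 that of *UBE2E3* was 1.30 (adjusted p = 0.055). *ME1*, the malic enzyme, had a like spread, at 4.89, 5.09 and 5.81 on OP9-GFP and 3.88, 4.16 and 3.94 in medium, and was not called (1.27, adjusted p = 0.076).

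Mouse stromal RNA could bind some human probes, and its part in these risers was not tested. Over the 34 measured stromal markers, chosen as genes of fibroblasts and marrow stroma, 4 were higher and 6 lower (11.8% and 17.6%, against 7.64% and 13.0% of all genes). Their median difference was 0.00 (log2), and their mean level per array was 4.83 to 4.91 on OP9-GFP with dox and 4.85 to 4.88 in medium with dox. *COL3A1*, *VCAM1* and *CXCL12*, which define stroma, were at 2.82 to 3.04, 2.47 to 2.87 and 3.49 to 3.73 on OP9-GFP and at 2.67 to 3.36, 2.28 to 2.68 and 3.60 to 3.95 in medium. *FBN1* and *COL5A1* fell by 1.04 and 0.85, and the markers that rose beside *LOX* were *COL5A2*, *COL6A3* and *CAV1*, by 0.43 to 0.48. *COL5A2* lost its call without any 1 of 5 of the 6 arrays, and *COL6A3* without medium with dox replicate 1 (0.43, adjusted p = 0.061) and without OP9-GFP with dox replicate 3 (0.45, adjusted p = 0.052). None of 11 adipocyte markers was called. Human probes need not bind the mouse transcripts, so low values do not show that mouse RNA was absent. In bulk samples, fewer cells of a type and less RNA per cell cannot be told apart.

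**Figure D3:**
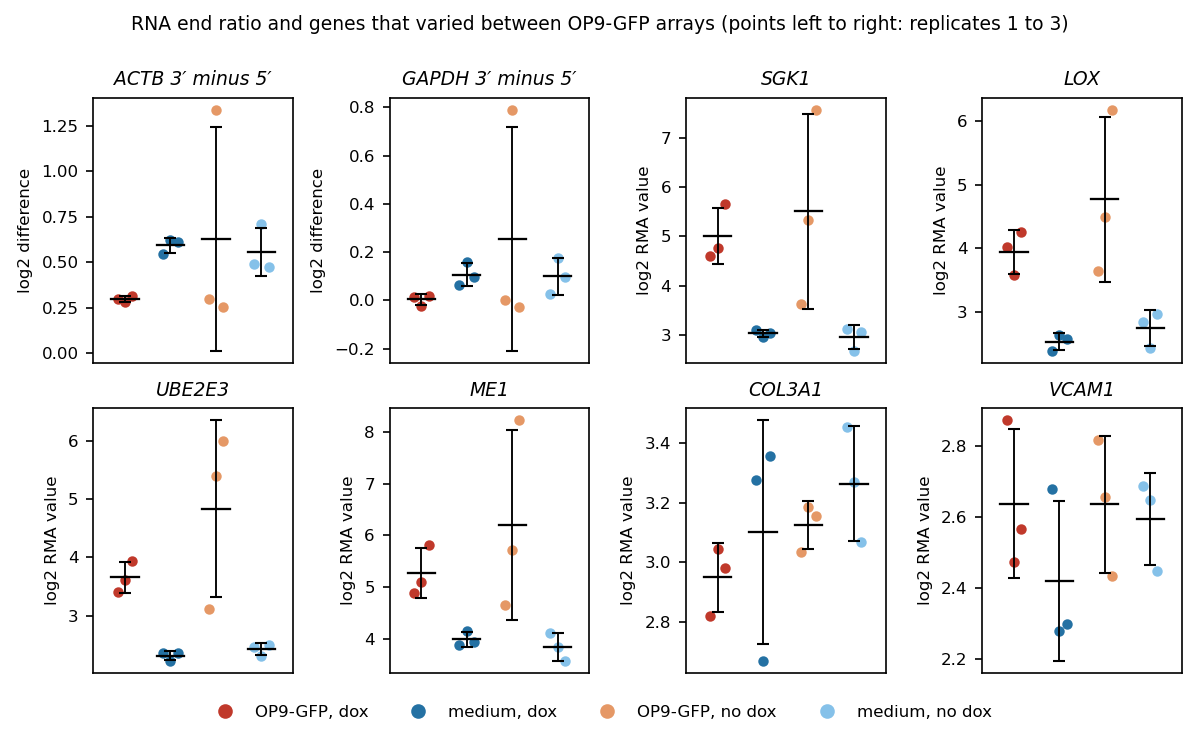
Actin and GAPDH 3′ minus 5′ probe signal (log2 difference) and log2 values of 4 genes that varied between OP9-GFP arrays and of the stromal markers *COL3A1* and *VCAM1*, on each array of 4 conditions, with points from left to right for replicates 1 to 3 (line, mean; bar, SD). *SGK1*, *LOX*, *UBE2E3* and *ME1* are spread on OP9-GFP and lie together in medium, while *COL3A1* and *VCAM1* overlap between OP9-GFP and medium.

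The other large losses came from genes of many kinds. *SUCNR1*, the succinate receptor, read 5.49, 5.50 and 5.26 on OP9-GFP with dox, against 8.07, 7.99 and 8.30 in medium with dox (−2.70, SE 0.15, adjusted p = 4.7e-12). *SLC8A3*, a sodium-calcium exchanger, read 5.40, 5.47 and 5.50 on OP9-GFP, against 7.75, 7.75 and 7.40 in medium (−2.18, SE 0.17). *SLC14A1*, a urea transporter, read 3.91, 3.85 and 3.66 on OP9-GFP, against 5.43, 6.23 and 6.12 in medium (−2.12, SE 0.19). *POU1F1*, a pituitary factor, and *COX8C*, a subunit of cytochrome c oxidase, fell by 2.26 and 2.37. *PRSS16*, a thymic serine protease, and the noncoding genes *WAKMAR2* and *SNTG2-AS1* fell by 1.95, 1.98 and 2.00. The pseudogene *SEPTIN7P14* was lower in 2 and higher in 2 of its 6 probe sets and is given no direction.

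The stroma effect in the uninduced line provides the comparison for what was particular to the induced cells. Without dox, 2129 genes were higher (10.8%) and 2267 lower (11.5%) on OP9-GFP than in medium. Of the genes higher with dox, 1138 were also higher without dox, 75.3% of the first list and 53.5% of the second, and 1733 genes were lower in both, 67.4% and 76.4%. These 2 comparisons share no arrays, though they share the line and the stroma. Without OP9-GFP without dox replicate 2, an array that stands apart in RNA quality, the shared counts were 1182 and 1881.

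**Figure D4:**
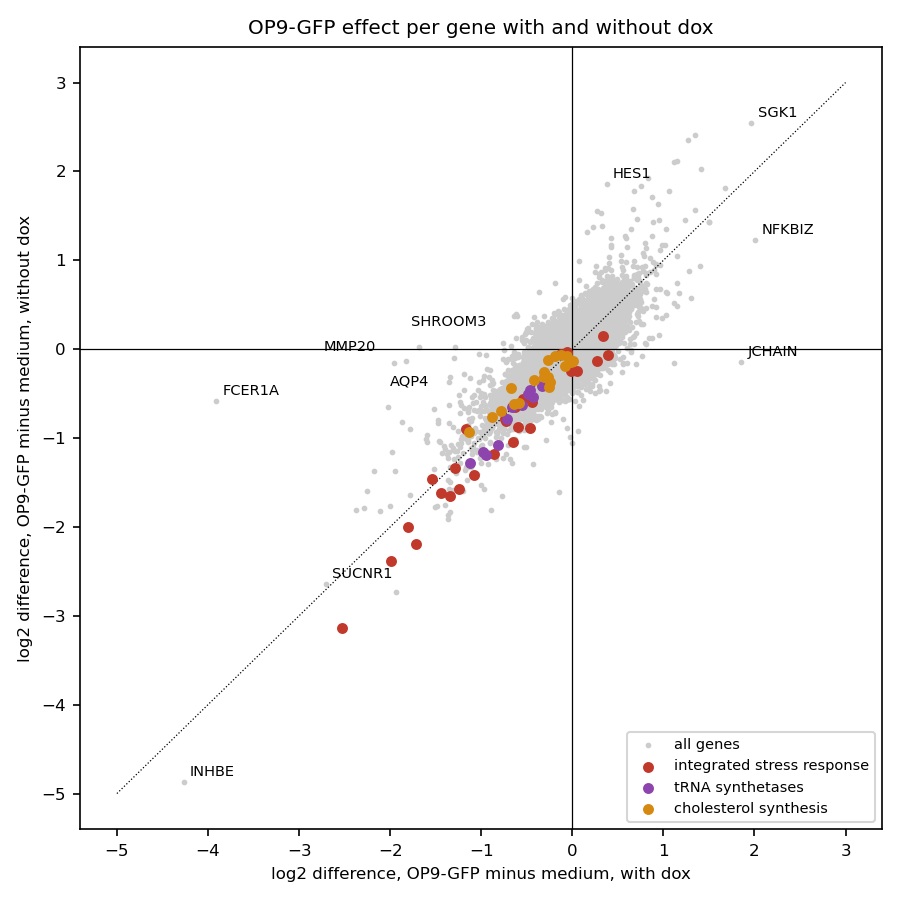
Log2 difference between OP9-GFP and medium for each gene with dox (horizontal) and without dox (vertical), with equal effects on the dotted line. Stress response, tRNA synthetase and cholesterol genes lie near that line, as *INHBE* does at −4.27 with dox and −4.88 without, whereas *FCER1A* (−3.91 and −0.59) and *JCHAIN* (1.86 and −0.15) lie off it. Without dox, *FCER1A* and *JCHAIN* were near the low end of the scale.

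Without dox the stress response list had 20 of 27 genes lower and none higher (median −0.89), the tRNA synthetases 11 of 11 lower (median −0.65) and the cholesterol list 12 of 19 lower (median −0.32). The fatty acid list had 4 of 9 lower and 1 higher without dox (median −0.25), against 7 lower and none higher with dox, and no gene of it was called in the difference. *SLC7A11* was the only gene of the 4 lists called in the difference of the 2 effects, since it fell by 2.53 with dox and by 3.13 without (difference 0.60, adjusted p = 0.022), a call lost when any 1 of 4 single arrays was left out. Beside them, the cells on OP9-DL1 with dox, which share the medium arrays as their reference, had mean levels of 7.31 for *SLC7A11*, 6.81 for *SESN2* and 9.90 for *CARS1*.

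The test of the difference called 97 genes. The effect of OP9-GFP was more positive with dox for 20 genes (0.101%) and more negative for 77 (0.389%). The 6 largest each way whose arrays with dox did not overlap are shown in the plot of genes with differing effects.

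**Figure D5:**
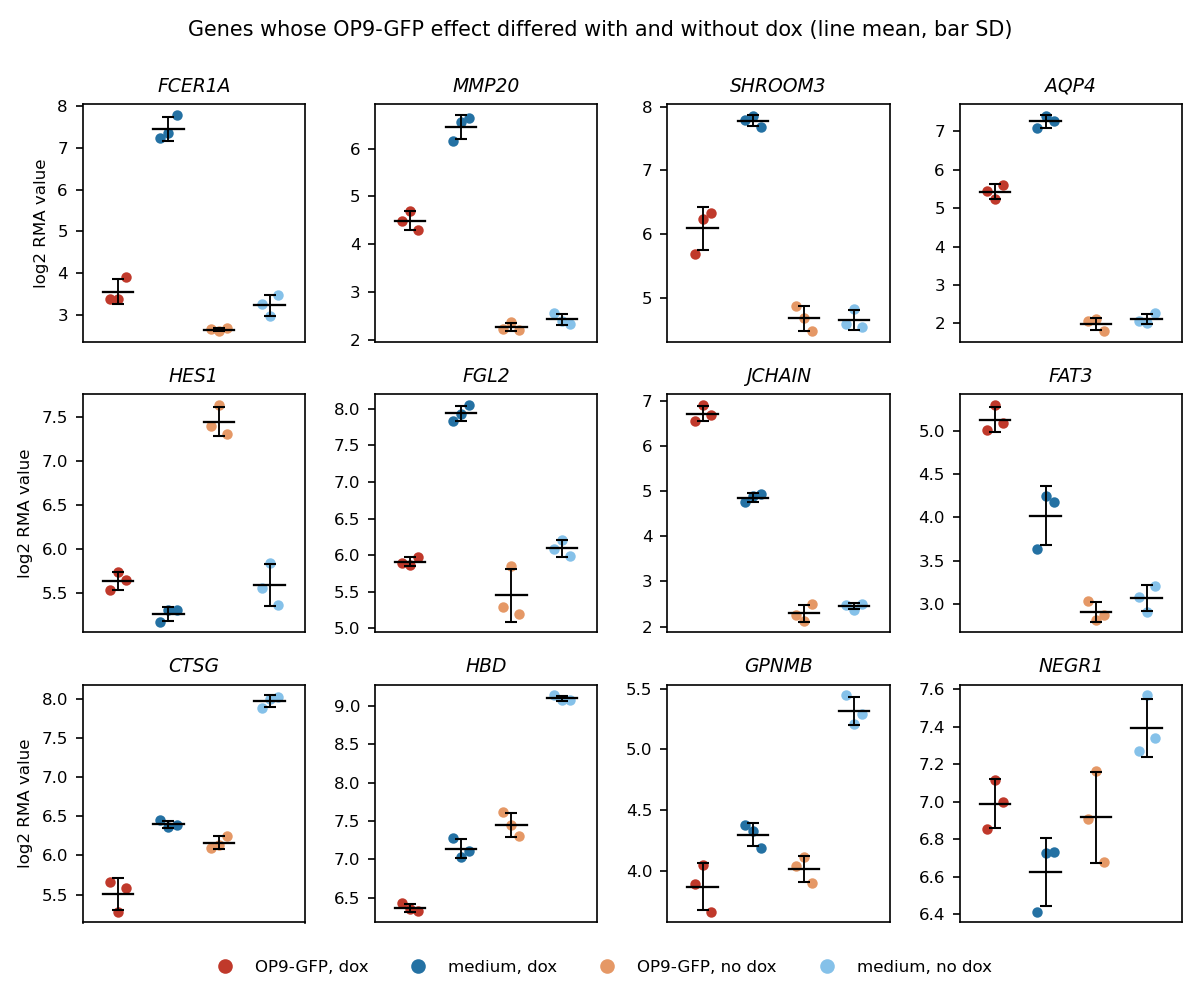
Log2 values of the 6 genes each way with the largest difference between the OP9-GFP effect with dox and without dox, among called genes whose arrays with dox did not overlap between OP9-GFP and medium, on each array of the 4 conditions (line, mean; bar, SD; n = 3 each). *FCER1A*, *MMP20*, *SHROOM3*, *AQP4* and *FGL2* are highest in medium with dox, *JCHAIN* and *FAT3* are highest on OP9-GFP with dox, and *HES1* is highest on OP9-GFP without dox.

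5 of the 6 more negative genes were highest in medium with dox. *FCER1A*, the alpha chain of the IgE receptor, read 3.39, 3.38 and 3.89 on OP9-GFP with dox, against 7.23, 7.37 and 7.79 in medium with dox (−3.91, SE 0.14), while it read 2.65, 2.60 and 2.67 on OP9-GFP without dox, against 3.26, 2.97 and 3.47 in medium without dox (−0.59). The difference of the effects was −3.32 (SE 0.20, adjusted p = 7.6e-10), and only 1 of its 2 probe sets was lower with dox. Its 3 arrays on OP9-GFP with dox were thus near the values without dox. Those values without dox lay near the low end of the scale, where there was little room for a larger fall.

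*AQP4*, a water channel, read 5.45, 5.24 and 5.61 on OP9-GFP with dox, against 7.08, 7.41 and 7.28 in medium with dox, and between 1.79 and 2.27 in all 6 arrays without dox (difference −1.70, SE 0.19). *MMP20*, a matrix protease of enamel, read 4.49, 4.69 and 4.30 on OP9-GFP with dox, against 6.16, 6.55 and 6.64 in medium with dox, and between 2.20 and 2.56 without dox (difference −1.80, SE 0.25). Without dox both genes lay near the low end of the scale, where a stroma effect could not be measured, so that the difference restates their fall with dox. *SHROOM3*, an actin-binding protein, and *FGL2*, a secreted fibrinogen-like protein, differed by −1.71 (SE 0.18, adjusted p = 5.4e-06) and −1.38 (SE 0.17, adjusted p = 6.8e-05).

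*HES1* had another pattern. Without dox it read 7.40, 7.63 and 7.31 on OP9-GFP, against 5.56, 5.84 and 5.36 in medium (1.86), and with dox the effect of OP9-GFP was the 0.38 given above, so that the difference was −1.48 (SE 0.14, adjusted p = 1.4e-06). These values are of its brightest probe set, and another of its 3 probe sets was higher with dox by 1.04. Over the alternatives the difference lay between −1.61 and −0.90, and the call was lost in 1 of 22. *SPRY1*, a feedback inhibitor of receptor kinases, and *GZMA*, a granzyme of cytotoxic cells, were also called in the difference, but unlike *HES1* they were higher with dox than without in medium (1.68 and 2.13) and on OP9-GFP (0.53 and 0.91). *SPRY1* read 10.42, 10.43 and 10.36 on OP9-GFP with dox, against 10.13, 10.31 and 10.28 in medium with dox, and it averaged 9.88 on OP9-GFP and 8.56 in medium without dox (difference −1.15), and its OP9-GFP effect with dox was not called (0.17, adjusted p = 0.16). *GZMA* read 8.58, 8.56 and 8.53 on OP9-GFP with dox, against 8.25, 8.23 and 8.24 in medium with dox, and it averaged 7.64 on OP9-GFP and 6.12 in medium without dox (difference −1.21). By the brightest probe set of each, the OP9-GFP effect was smaller with dox in all 3 genes.

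Among the more positive genes, *JCHAIN* was at 2.27, 2.13 and 2.50 on OP9-GFP and 2.48, 2.37 and 2.50 in medium without dox, near the low end of the scale. A stroma effect could not be measured there, so that its difference (2.01, SE 0.15) restates its rise with dox. *FAT3*, an atypical cadherin, read 5.01, 5.30 and 5.09 on OP9-GFP with dox, against 3.63, 4.25 and 4.18 in medium with dox, and between 2.82 and 3.21 without dox (difference 1.27, SE 0.20, adjusted p = 0.0017), with 1 of 3 probe sets higher. The values of *FAT3* without dox were also near the low end of the scale. *CTSG*, the granule protease cathepsin G, and *HBD*, the delta-globin gene, fell with dox (−0.89 and −0.77) and without dox (−1.81 and −1.65), and their differences were 0.92 (adjusted p = 0.0018) and 0.88 (adjusted p = 0.008). *GPNMB* and *NEGR1*, with 0.86 and 0.84, completed the group. Both lost the call when some of the single arrays were left out.

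The *MEF2C* probe sets differed in direction. The first probe set read 8.68, 8.72 and 8.67 on OP9-GFP with dox, against 8.36, 8.09 and 8.17 in medium with dox (0.48, SE 0.14, adjusted p = 0.019), and was 0.53 higher with dox than without in medium. The other 2 probe sets were lower on OP9-GFP with dox than in medium with dox, by −0.23 and −0.39 (adjusted p = 0.00098 and 6.1e-05), and were lower with dox than without in medium, by −1.08 and −1.04. The study describes most *MEF2C* probe sets as lying outside the cloned sequence, so that they report the cell's own gene, and a single probe set as also covering it, without naming them in its text. The 3 probe sets are therefore not read as 1 level.

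Of the 8 measured identity genes of LOUCY cells, 3 were lower on OP9-GFP (37.5%, against 13.0% of all genes) and none higher. The lower ones were *CD5* (−0.61) and *CD3D* (−0.26), given above, and *MEF2C* by its brightest probe set (−0.23). As 1 of the 3 *MEF2C* probe sets was higher, its place in this count rests on the choice of probe set. The *CD5* call was lost without some single arrays, as given above. *LYL1*, *LMO2* and *HHEX* averaged 9.61, 8.34 and 10.47 on OP9-GFP with dox and 9.46, 8.46 and 10.45 in medium with dox by their brightest probe sets, and none of the 3 was called. However, 1 of the 2 probe sets of *LMO2* was lower (−1.10). Arrays of a group correlated at r of 0.9963 to 0.9978 on OP9-GFP with dox and 0.9963 to 0.9973 in medium with dox, over all probe sets. The 3′ minus 5′ signal of actin was 0.28 to 0.31 on OP9-GFP with dox and 0.54 to 0.62 in medium with dox, so that this sign of RNA quality moved with the groups, and its part in the results was not tested beyond the covariate fits given above. OP9-GFP without dox replicate 2 stood apart, with actin and GAPDH values of 1.34 and 0.79, and it enters the comparison without dox and the difference only.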

How the data were processed

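The data are log2 values from Affymetrix HG U133 Plus 2.0 arrays, which the authors made with robust multi-array averaging (RMA, affy 1.64.0 in R 3.6.3, per the submitters' processing notes): background correction, quantile normalization over arrays and a summary per probe set. RMA removes differences in overall brightness and leaves no counts, so the 3 arrays of each condition limit the precision. Of 54675 probe sets, 62 controls were left out; 41097 had 1 gene symbol in the platform annotation, 1801 several and 11777 none listed. The brightest probe set with 1 symbol stood for each of 19775 genes.

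All 30 arrays of 10 conditions were fitted with limma 3.58.1 in R 4.3.3, with p-values adjusted by Benjamini-Hochberg over all probe sets but the controls; every adjusted p in the text is limma's unless another test is named. The fit was tested on simulated data. Genes were named if they were among the 15 largest changes each way whose arrays did not overlap, among the 6 largest differences each way between the effects with and without dox, under the same condition on the arrays with dox, or members of 48 lists. The comparison and lists were chosen with earlier results of these data known. Promoters were RefSeq windows (GRCh38.p14). Alternatives covered normalization, probe set choice, filters, variance prior, arrays fitted, the methods' t-test, a replicate block and leaving out each array; the actin covariate was chosen after seeing the data.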

Additional observations from a re-analysis of the deposited data

Results flagged for a closer look

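For 29 named genes the effect of OP9-GFP differed between the cells with dox and those without by limma's test of the difference (adjusted p under 0.05). Values are the effect with dox minus the effect without dox, on the log2 scale. The more positive ones were *JCHAIN* (2.01), *FAT3* (1.27), *CTSG* (0.92), *HBD* (0.88), *GPNMB* (0.86), *NEGR1* (0.84) and *SLC7A11* (0.60).

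The more negative ones beyond 1 were *FCER1A* (−3.32), *MMP20* (−1.80), *SHROOM3* (−1.71), *AQP4* (−1.70), *HES1* (−1.48), *FGL2* (−1.38), *GZMA* (−1.21), *SPRY1* (−1.15) and *CSRP3* (−1.05). The smaller ones were *CXCR3* (−0.83), *LIG4* (−0.80), *NR4A2* (−0.75), *SMAD6* (−0.70), *JUN* (−0.60), *TRIB2* (−0.60), *MYCN* (−0.56), *TP53INP1* (−0.53), *FHL2* (−0.52), *PRKCH* (−0.49), *IKZF1* (−0.48), *SRF* (−0.46) and *TOX* (−0.38).

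Of the 29, *FCER1A*, *JCHAIN* and *SPRY1* were called in all alternatives run. With the mean over the probe sets of a gene, 9 of the 29 lost the call. At their smallest over the alternatives, the differences of *MYCN*, *SMAD6* and *TP53INP1* were −0.015, −0.037 and −0.09. Those of *IKZF1* and *SRF* were −0.10 and −0.19. Without OP9-GFP without dox replicate 2, the array that stands apart in RNA quality, *CSRP3* (−0.90, adjusted p = 0.098), *CXCR3* (−0.83, adjusted p = 0.092), *JUN* (−0.58, adjusted p = 0.082), *NR4A2* (−0.65, adjusted p = 0.155), *SMAD6* (−0.66, adjusted p = 0.083) and *TOX* (−0.34, adjusted p = 0.062) lost the call. *NEGR1* lost it without medium with dox replicate 1 (0.74, adjusted p = 0.056), without medium without dox replicate 2 (0.75, adjusted p = 0.053) and without OP9-GFP with dox replicate 2 (0.78, adjusted p = 0.062). *SLC7A11* lost it without medium with dox replicate 1 (0.55, adjusted p = 0.075), medium without dox replicate 3 (0.57, adjusted p = 0.069), OP9-GFP with dox replicate 1 (0.61, adjusted p = 0.058) or OP9-GFP with dox replicate 2 (0.58, adjusted p = 0.073).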

How the results depend on the processing

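With dox, 1511 genes were higher and 2571 lower. The study's own threshold (0.6 on the log2 scale, p under 0.05 and q under 0.1) left 170 higher and 556 lower, the replicate block 815 and 1781, and the methods' t-test 999 and 2005, while leaving out 1 array gave 1105 to 1249 higher and 2075 to 2277 lower. Without dox, 2129 were higher and 2267 lower. The threshold left 255 and 475, fitting only the groups compared 534 and 841, the replicate block 384 and 672, and the t-test 105 and 161. Leaving out 1 array gave 1588 to 2277 higher and 1857 to 2370 lower. For the difference, 20 were more positive and 77 more negative. The actin covariate gave 38 more positive and the mean over probe sets 35. The threshold left 48 more negative. Only the groups compared gave 6 and 17, the replicate block 3 and 13, the t-test 1 and 10, and a trended and robust variance prior 34 and 125. Leaving out 1 array gave 16 to 31 and 55 to 105, with 31 more positive without OP9-GFP without dox replicate 2. The cause was not tested. With the mean over probe sets, the differences with dox of *BCL2* (0.032), *HDAC4* (−0.035), *MYCN* (0.038), *SEL1L* (0.12), *SESN3* (0.048) and *TCF12* (0.26, adjusted p = 0.011) turned in sign. Of 240 named genes called with dox, 136 kept the call in every alternative that gave them a value, and 3 of 29 did for the difference. Same-numbered arrays did not deviate together (r of −0.07, 0.03 and −0.10 with dox), so the numbers were not taken to pair them.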

Other observations

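Outside the naming rule, and chosen after their values were seen, *S100P*, a calcium-binding protein, and *PTPRR*, a tyrosine phosphatase, were lower on OP9-GFP in the cells without dox and were not called with dox. *S100P* read 3.77, 3.89 and 3.85 on OP9-GFP with dox, against 4.02, 4.06 and 3.89 in medium with dox, and 3.96, 4.29 and 3.89 on OP9-GFP without dox, against 5.50, 5.51 and 5.96 in medium without dox (difference of the effects 1.46, limma adjusted p = 0.00038). With dox, *S100P* in medium was already about as low as on OP9-GFP without dox, which left little room for a fall. *PTPRR* read 6.83, 6.89 and 6.72 on OP9-GFP with dox, against 6.72, 6.80 and 6.97 in medium with dox, and 5.63, 5.77 and 5.44 on OP9-GFP without dox, against 6.56, 6.77 and 6.46 in medium without dox (difference 0.96, limma adjusted p = 0.0043).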
